A study of Mus musculus with 9 samples.

Results

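A group of 8 genes that carry negative feedback on the ERK pathway were followed in microglia, the brain's own immune cells, which were purified from visual cortex of adolescent mice. They are Dusp6, Dusp4, Dusp5, Dusp7, Spry1, Spry2, Spred1 and Spred2, 8 of the 45664 gene symbols in the count table, and each was found in the table under its own symbol. The members were chosen by symbol, and the list was put forward with measured values of these data in view, the CPM and fold changes of ethanol against saline mice among them. The ethanol against saline values of the members are therefore a description and carry no test.

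The 4 ethanol mice received 1.8 g per kg of ethanol (20% v/v in saline) under the skin of the back, 2 times a day with 2 h between injections, a daily dose of 3.6 g per kg on postnatal days 4 to 9. The 5 saline mice received the same volume of saline on the same days. All 9 were male C57BL/6 mice from 3 litters, and each library held the sorted cells of 1 mouse (live, CD11b positive, CD45 low). Ethanol 1 and 2 were taken at postnatal day 35 and ethanol 3 and 4 at day 30, and saline 1 to 5 at days 36, 30, 35, 29 and 30. Which mouse came from which litter was not known here.

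ERK is the last kinase of a cascade that runs from receptor tyrosine kinases through RAS, RAF and MEK, and in macrophages and microglia the receptor CSF1R is one of the inputs. Active ERK raises the transcription of its own inhibitors. The dual-specificity phosphatases Dusp6 and Dusp7 remove the activating phosphates from ERK in the cytoplasm, and Dusp5 and Dusp4 do so in the nucleus, the last of these also acting on other MAP kinases. Sprouty proteins (Spry1, Spry2) dampen signalling between the receptor and RAF, and Spred proteins (Spred1, Spred2) bring neurofibromin, the product of Nf1, to RAS and so switch it off.

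Library totals ranged from 12816198 to 28859244 counts, and the labels give RNA integrity numbers of 9.1 to 9.9 for ethanol and 9 to 9.9 for saline mice. The sorted cells carried the microglial markers at high levels in every library (8 markers, with sums of 39258 to 49349 CPM in ethanol and 38165 to 44446 CPM in saline mice, where CPM is the count relative to the library total after scaling of the libraries to one another). Saline 1 stood apart by nearly lacking neuronal and astrocyte transcripts (3.64 CPM over 10 neuronal and 7.74 CPM over 12 astrocyte markers, against 75.7 to 293 CPM and 107 to 316 CPM in the other 8 libraries). Gja1, Slc4a4, Atp1b2, Fgfr3 and Agt of the astrocyte list had 0 counts there. Ethanol 2 held the lowest level of Dusp7, Spred1, Spry1 and Spred2 of all 9 libraries. Several ethanol, age and ending values are given with and without one of these libraries, and interaction values as ranges with single libraries left out.

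The promoters of 4 members are shown first, because their levels differed with the names of the libraries, as described further on. RefSeq's promoter table (GRCm38.p6) held 7 of the 8 members, each as 250 bases before to 50 bases after the start site that RefSeq gives. For Spred1, Spred2 and Dusp5 this site is not the gene start of the GENCODE coordinates printed further on. The Spred1 window ends before the GENCODE start of that gene, at 117121374. Capitals mark the ETS motif CGGAAG, searched on both strands. ETS factors are among the transcription factors that ERK phosphorylates.
Dusp6 (chr10:99262981-99263280, plus strand): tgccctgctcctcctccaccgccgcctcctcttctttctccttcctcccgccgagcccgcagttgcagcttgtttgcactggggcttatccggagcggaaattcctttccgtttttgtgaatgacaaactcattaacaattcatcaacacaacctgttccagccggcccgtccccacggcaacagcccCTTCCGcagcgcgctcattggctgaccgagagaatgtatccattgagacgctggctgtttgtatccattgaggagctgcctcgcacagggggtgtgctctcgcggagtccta
Dusp7 (chr9:106368382-106368681, plus strand): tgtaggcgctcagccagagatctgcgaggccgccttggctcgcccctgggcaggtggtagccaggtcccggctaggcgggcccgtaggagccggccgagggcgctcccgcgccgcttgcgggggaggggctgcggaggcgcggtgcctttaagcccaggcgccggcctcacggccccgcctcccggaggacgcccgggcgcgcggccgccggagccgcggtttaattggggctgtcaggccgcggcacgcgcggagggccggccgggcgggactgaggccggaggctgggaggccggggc
Spred1 (chr2:117120821-117121120, plus strand): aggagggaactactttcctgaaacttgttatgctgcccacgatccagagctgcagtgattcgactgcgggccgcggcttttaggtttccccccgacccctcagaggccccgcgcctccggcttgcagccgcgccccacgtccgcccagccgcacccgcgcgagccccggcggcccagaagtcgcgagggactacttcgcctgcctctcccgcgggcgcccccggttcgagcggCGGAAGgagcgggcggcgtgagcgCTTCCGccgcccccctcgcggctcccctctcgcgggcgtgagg
Spred2 (chr11:19924192-19924491, plus strand): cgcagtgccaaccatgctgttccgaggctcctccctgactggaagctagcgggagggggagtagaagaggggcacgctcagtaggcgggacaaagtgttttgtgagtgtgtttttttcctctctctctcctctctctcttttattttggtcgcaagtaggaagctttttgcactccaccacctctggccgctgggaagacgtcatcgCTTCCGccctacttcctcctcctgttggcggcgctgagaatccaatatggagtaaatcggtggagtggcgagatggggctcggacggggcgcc

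The ETS motif began 62 bases before the start site in Dusp6 and 43 bases before it in Spred2, and it occurred at both -17 and 8 in Spred1. No match was found in Dusp7, nor in Dusp5, Spry1 and Spry2, the members of the RefSeq list whose windows are not shown. At least 1 match was held by 16.9% of the 32851 promoters of 300 bases that RefSeq's list gave. Neither the cyclic AMP response element TGACGTCA (1.79% of promoters) nor the AP-1 motif TGANTCA (7.81%) was found in any of the 7 members. The CArG box, the binding motif of serum response factor, was in 1.63% of promoters. Dusp5 held 2 of them, beginning 82 and 72 bases before its start site (chromosome 19). GC content was 57.3% in Dusp6, 78.7% in Dusp7, 72.3% in Spred1 and 57.0% in Spred2, beside a median of 52.7% over all promoters. These matches describe the letters of the windows alone.

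The feedback genes of visual cortex microglia differed widely in level. Counted per kb of exon, Dusp6 was the highest at 226 ± 74.8 CPM per kb (SD, n = 9 libraries), and it was the 151st most abundant of 13067 genes by mean CPM. Dusp7 followed at 79.2 ± 20.2 CPM per kb and Spred1 at 33.6 ± 7.43 CPM per kb. Spry1 reached 12.1 ± 2.43, Spred2 2.04 ± 0.612 and Dusp5 0.386 ± 0.172 CPM per kb. Spry2 and Dusp4 were close to the limit of detection, at 0.0427 ± 0.0494 and 0.0402 ± 0.0421 CPM per kb. The ranges over the 9 libraries did not overlap between Dusp6 and Dusp7, between Spred1 and Spry1, between Spry1 and Spred2 or between Spred2 and Dusp5. Dusp7 (lowest 43.8) and Spred1 (highest 46.2 CPM per kb) overlapped at the edges, as did Dusp5 (lowest 0.139) and Spry2 (highest 0.142 CPM per kb), and Spry2 and Dusp4 could not be put in order.

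Of the 8 members, 6 passed the count filter and were tested, and Dusp4 and Spry2 did not pass. Reads of Dusp5 and Spry1 carry a further uncertainty, since each overlaps, over its exons, a gene on the opposite strand (547 bases with AC137853.2 and 710 bases with Gm42922 in GENCODE M21) and whether counting used strand is not stated. In sorted bulk cells, fewer cells of a type and less RNA per cell cannot be told apart.

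**Figure D1:**
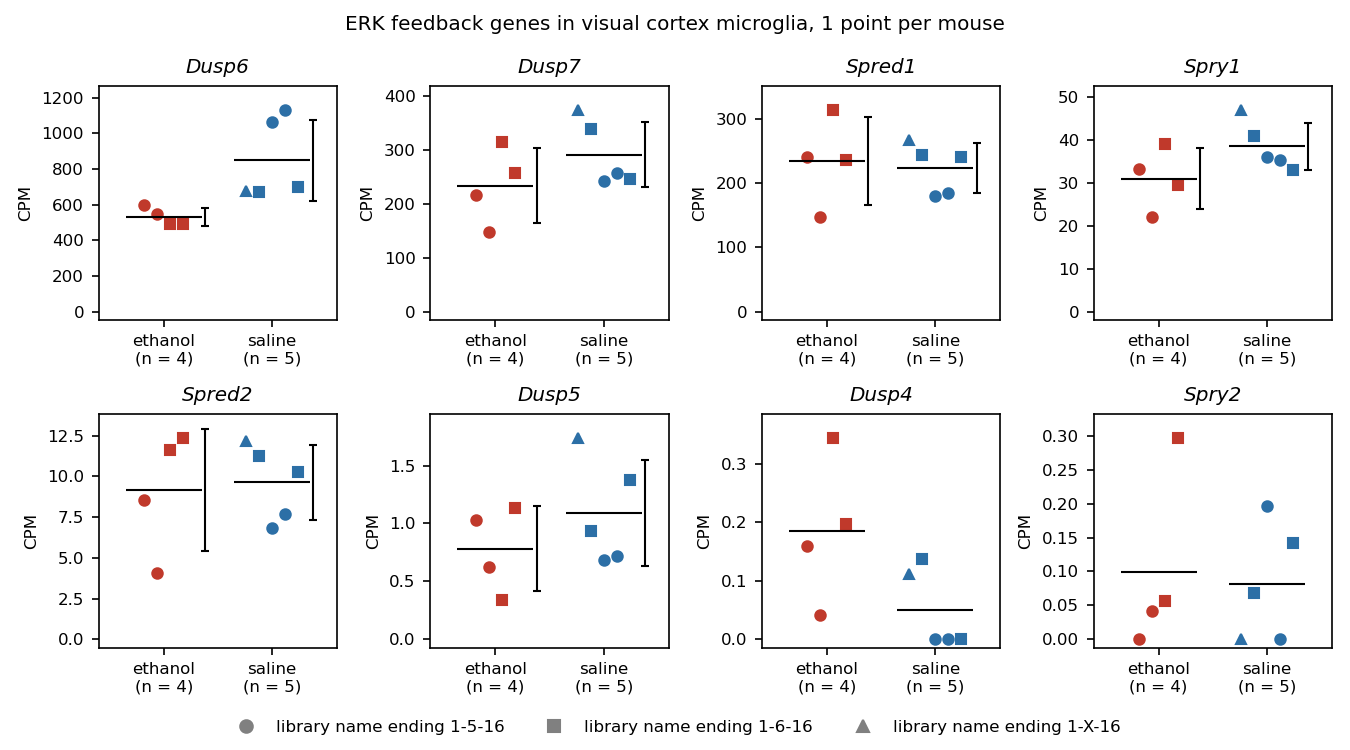
Level of each member in CPM (vertical axes, linear, each with its own range) in the 4 ethanol and the 5 saline mice, 1 point per mouse, with the shape of the point giving the ending of the library name. Horizontal lines are group means and bars beside them the SD, left out for Dusp4 and Spry2, which had 0 to 6 counts per library; the Dusp6 points of the ethanol mice, at 491 to 596 CPM, all lie below those of the saline mice, at 671 to 1129.8 CPM.

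Among the ERK phosphatases, Dusp6 (chromosome 10, 99263231 to 99267489, GRCm38, plus strand) had the lower level in ethanol mice. It stood at 596, 546, 491 and 494 CPM in ethanol 1 to 4, against 674, 671, 1064, 1129.8 and 700.1 CPM in saline 1 to 5. Every ethanol library was below every saline library, and saline 3 and saline 4 stood well above the other saline mice. The means were 532 ± 49.8 CPM in ethanol mice (SD, n = 4) and 848 ± 229 CPM in saline mice (SD, n = 5), and the log2 fold change was -0.67 ± 0.17 (SE, 95% interval -1.06 to -0.29), or a ratio of 0.627. Such a separation with all ethanol libraries lower was found for 82 of 13067 genes (0.628%), and the opposite one, with all ethanol libraries higher, for 0.658%. Since the members were chosen with this contrast in view, nothing further is read from it. In edgeR's quasi-likelihood test with Benjamini-Hochberg adjustment 0 of 13067 genes (0%) passed the threshold of 0.05, so no member did, with 386 genes (2.95%) under an unadjusted 0.05. DESeq2 and limma-voom also called 0 genes, with 435 and 504 under an unadjusted 0.05. The coefficient of variation between mice was 9.37% in the ethanol and 27.0% in the saline group.

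Dusp7, the cytoplasmic relative of Dusp6 (chromosome 9, 106368632 to 106375724), overlapped between the groups. It was at 216, 147, 314 and 257 CPM in ethanol 1 to 4, against 373, 338, 242, 257 and 246 CPM in saline 1 to 5. Ethanol 2 was the lowest library and saline 1 the highest. The log2 fold change was -0.32 ± 0.21 (95% interval -0.79 to 0.15) over all mice and -0.15 without ethanol 2.

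Dusp5, the ERK phosphatase of the nucleus (chromosome 19, 53529109 to 53542431), was barely expressed. Its counts were 13, 15, 6 and 23 in ethanol 1 to 4, against 31, 27, 14, 13 and 29 in saline 1 to 5. The levels were 0.784 ± 0.368 CPM in ethanol and 1.09 ± 0.454 CPM in saline mice, and the ranges overlapped. The log2 fold change of -0.48 ± 0.45 had a 95% interval from -1.47 to 0.51, a ratio of 0.360 to 1.43, so neither a fall nor a rise within it could be detected at this depth.

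Dusp4, the other nuclear phosphatase (chromosome 8, 34807297 to 34819894), gave 2, 1, 6 and 4 counts in ethanol 1 to 4, against 2, 4, 0, 0 and 0 counts in saline 1 to 5. The 3 saline libraries with 0 counts allow at most 0.147, 0.166 and 0.142 CPM (3 counts of the library). The 95% Poisson interval of the 6 counts of ethanol 3 was 2.20 to 13.1 counts. Intervals and limits on counts cover counting error only, and no fold change is given.

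The receptor-level inhibitor Spry1 (chromosome 3, 37639947 to 37644598) was at 33.3, 22.1, 39.0 and 29.5 CPM in ethanol 1 to 4, against 46.9, 41.0, 35.99, 35.4 and 33.1 CPM in saline 1 to 5. Ethanol 2 was the lowest and saline 1 the highest library, and the groups overlapped. The means were 30.9 ± 7.10 CPM in ethanol and 38.5 ± 5.53 CPM in saline mice, with a log2 fold change of -0.32 ± 0.16 (95% interval -0.67 to 0.03), which became -0.19 without ethanol 2. Spry2 (chromosome 14, 105891947 to 105896819, minus strand) gave 0, 1, 1 and 6 counts in ethanol 1 to 4, against 0, 2, 4, 0 and 3 counts in saline 1 to 5. That is 8 counts in ethanol and 9 counts in saline mice in all. Its libraries with 0 counts allow at most 0.238 CPM in ethanol 1, and 0.168 and 0.166 CPM in saline 1 and saline 4.

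Spred1 (chromosome 2, 117121374 to 117182279) was the more abundant of the RAS-level inhibitors. It stood at 241, 147, 314 and 236 CPM in ethanol 1 to 4, against 268, 244, 180, 185 and 240.2 CPM in saline 1 to 5. The lowest and the highest library were both ethanol mice, 2 and 3. The log2 fold change was 0.07 ± 0.20 (95% interval -0.37 to 0.51), and 0.24 without ethanol 2. Spred2 (chromosome 11, 19924375 to 20024026) was at 8.57, 4.10, 11.6 and 12.4 CPM in ethanol 1 to 4, against 12.2, 11.3, 6.83, 7.69 and 10.3 CPM in saline 1 to 5. Its log2 fold change was -0.08 ± 0.30 (95% interval -0.74 to 0.58), and 0.17 without ethanol 2.

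Of the 6 tested members 5 were below 0 and 1 was above in log2 fold change. Their median was -0.32, beside 50.2% of all genes below 0 and a median of -0.0007. The 95% interval of the ratio of ethanol to saline ran from 0.480 to 0.820 for Dusp6, from 0.580 to 1.11 for Dusp7, from 0.629 to 1.02 for Spry1 and from 0.773 to 1.42 for Spred1. In saline 1, where neuronal and astrocyte markers were nearly missing, Dusp6 was at 674 CPM, and Dusp7, Spry1, Spred1, Spred2 and Dusp5 each had their highest saline level. Astrocyte markers were above 0 in ethanol against saline for 11 of 11 tested (median log2 fold change 0.66, 0 called), at a summed 113 to 316 CPM in ethanol and 7.74 to 274 CPM in saline mice. Border macrophage markers were below 0 for 4 of 4 tested (median -1.02, 0 called), at a summed 39.1 to 91.3 CPM in ethanol and 48.4 to 81.7 CPM in saline mice. The part of these cells in the levels of the members was not tested.

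**Figure D2:**
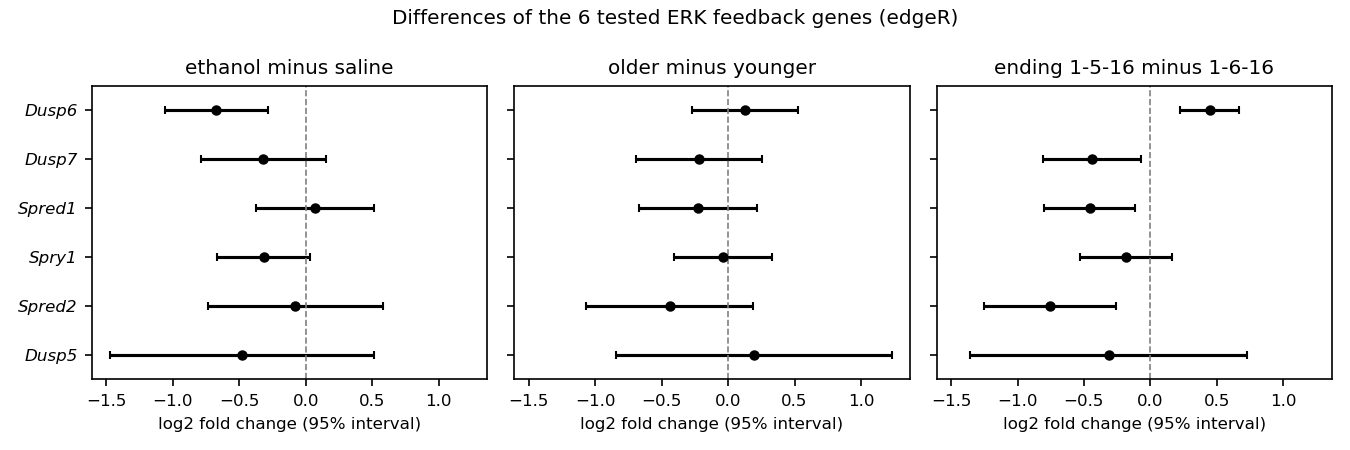
Log2 fold change (horizontal axis) with its 95% interval for each of the 6 tested members, for ethanol minus saline, older minus younger mice and library name ending 1-5-16 minus 1-6-16. Dusp6 lies at -0.67 for ethanol and at 0.45 for the name ending, where Dusp7, Spred1 and Spred2 lie between -0.76 and -0.44.

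The members differed more between mice of one treatment than most genes of like level. The within-group SD of log2 CPM was 0.30 for Dusp6, beside a median of 0.13 over 156 genes within 0.5 log2 units of its mean level, and 87.8% of those genes varied less. It was 0.37 for Dusp7, 0.36 for Spred1, 0.54 for Spred2 and 0.27 for Spry1, with 92.4%, 90.9%, 93.5% and 82.7% of genes of like level varying less. Dusp5, at 0.60, lay at the middle of its level (46.0% varied less).

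Levels of several members went with the names of the libraries. Each library is labelled with a name whose ending is 1-5-16 (ethanol 1 and 2, saline 3 and 4), 1-6-16 (ethanol 3 and 4, saline 2 and 5) or 1-X-16 (saline 1). What the endings stand for is not stated in the labels. Both treatments were present in equal number under 1-5-16 and 1-6-16. The 1-6-16 mice were all 30 days old, and of the 1-5-16 mice 3 were 35 and 1 was 29 days old, so ending and age coincide in part.

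The separation of Dusp6 over all mice fixes its order within each ending, so the values by ending are a description of size. Under 1-5-16 it was at 596 and 546 CPM in ethanol mice, against 1064 and 1129.8 CPM in saline mice. Under 1-6-16 it was at 491 and 494 CPM in ethanol mice, against 671 and 700.1 CPM in saline mice. The log2 fold change of ethanol against saline was -0.94 ± 0.11 under 1-5-16 and -0.48 ± 0.10 under 1-6-16, and the difference between these was not tested. With the ending as a covariate, saline 1 taking a term of its own, the log2 fold change was -0.71 ± 0.10 (95% interval -0.93 to -0.49), and 0 of 13067 genes (0%) passed, with 506 (3.87%) under an unadjusted 0.05. That covariate brought the SE of Dusp6 to 0.10, against 0.17 without it.

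**Figure D3:**
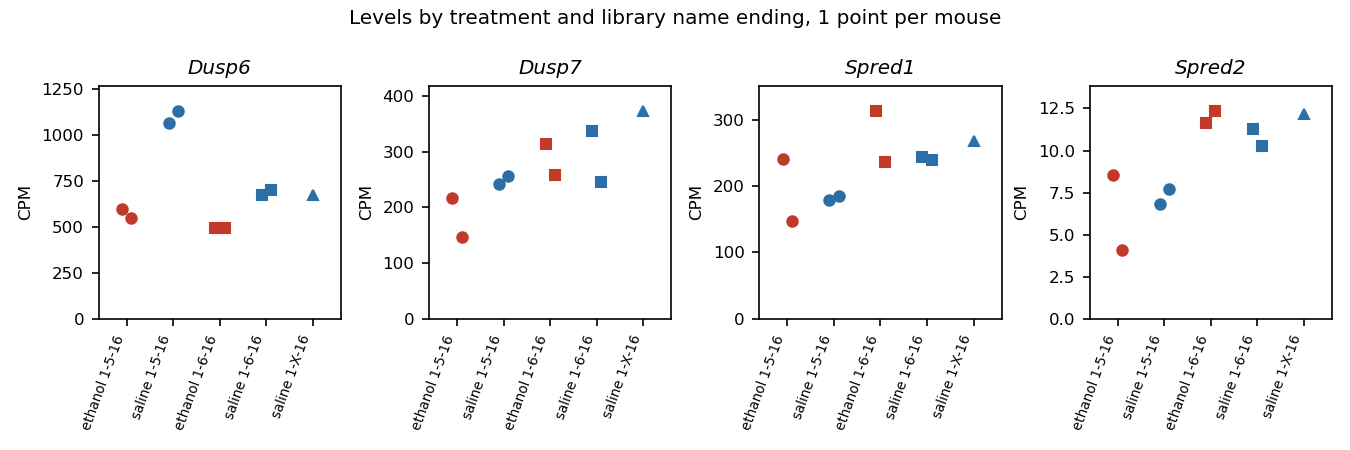
Level in CPM (vertical axes, linear, from 0) of Dusp6, Dusp7, Spred1 and Spred2 in each mouse, by treatment and ending of the library name. Dusp6 is highest in the saline mice of 1-5-16 (1064 and 1129.8 CPM), while Spred2 is at 4.10 to 8.57 CPM under 1-5-16 and at 10.3 to 12.4 CPM under 1-6-16.

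The ending was then fitted across all genes with ethanol as a covariate, a comparison added after the values by mouse had been seen. Dusp6 averaged 834 ± 305 CPM under 1-5-16 and 589 ± 112 CPM under 1-6-16 (SD, n = 4 each), a log2 fold change of 0.45 ± 0.10. Spred2 differed in the other direction, with 6.80 ± 1.93 CPM under 1-5-16 and 11.4 ± 0.860 CPM under 1-6-16 (-0.76 ± 0.22) and no overlap between the endings. All 1-5-16 libraries lay below all 1-6-16 libraries for 2.25% of 13067 genes and above them for 3.11%. Spred1 had 188 ± 39.1 CPM under 1-5-16 and 258 ± 37.0 CPM under 1-6-16 (-0.46 ± 0.15), and Dusp7 had 216 ± 48.7 CPM under 1-5-16 and 289 ± 44.1 CPM under 1-6-16 (-0.44 ± 0.16). Spry1 (-0.18 ± 0.15) and Dusp5 (-0.31 ± 0.47) had intervals that held 0. No gene passed the adjusted threshold in edgeR (0 of 13067, 0%), where Dusp6 had an adjusted p of 0.438, Spred2 of 0.558, Spred1 of 0.593 and Dusp7 of 0.624. Under an unadjusted 0.05 there were 992 genes (7.59%), and the members, whose values prompted this comparison, are not counted against that share. DESeq2 called 44 genes and limma-voom 20, where Dusp6 had an adjusted p of 0.0466. Since the values of the members prompted this comparison, their adjusted p-values here are a description and carry no test. Without ethanol 2 edgeR called 57 genes, and Dusp6 had a log2 fold change of 0.52 with an adjusted p of 0.0141, while the others came closer to 0, at -0.29 for Dusp7, -0.32 for Spred1, -0.54 for Spred2 and -0.05 for Spry1. With age cohort as a further covariate the values were 0.63 ± 0.16 for Dusp6, -0.26 ± 0.28 for Dusp7, -0.40 ± 0.28 for Spred1 and -0.54 ± 0.39 for Spred2, and 0 genes passed, with 356 under an unadjusted 0.05. The intervals of the last 3 then held 0. Saline 4 was the only younger mouse under 1-5-16, and 1-6-16 held no older mouse, so this fit splits ending from age by saline 4 alone. That library also had the highest Dusp6 level, and for Dusp6 as for the others ending and age cannot be told apart.

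The summed level of 20 genes of the immediate early and dissociation response, which rise when tissue is taken apart, was also higher in the 1-5-16 libraries, as a sum that was not tested, and of its 19 tested genes 0 passed (median log2 fold change 0.25). The sum was 2645 and 2497 CPM in ethanol 1 and 2 and 2398 and 2782 CPM in saline 3 and 4 (ending 1-5-16), against 1811 and 2136 CPM in ethanol 3 and 4 and 2101 and 1782 CPM in saline 2 and 5 (ending 1-6-16), and saline 1 was at 1889.8 CPM. Neuronal and astrocyte markers had medians of -0.78 and -0.56 across the endings (8 and 11 tested, 0 called). The part of either in the levels of Dusp6 was not tested. Between treatments the sum ranged from 1811 to 2645 CPM in ethanol and from 1782 to 2782 CPM in saline mice. Across the endings 0 of 18 tested ERK-induced targets passed (median -0.06), and 0 of 21 genes of the RAS to ERK cascade passed (median 0.02). Over all genes 0 of 13067 passed this fit (median -0.02), so the counts of 0 say nothing particular to any list.

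No member passed the test for age. Older mice (days 35 and 36, n = 4) were compared with younger mice (days 29 and 30, n = 5) with ethanol as a covariate, and 0 of 13067 genes (0%) passed edgeR's test (372 genes, 2.85%, under an unadjusted 0.05). All older libraries lay above all younger ones for 0.643% of genes and below them for 0.597%, and the groups overlapped for all 6 tested members. Of these members 4 were below 0, beside 54.8% of all genes. Dusp6 averaged 720.3 ± 235 CPM in older and 697 ± 261 CPM in younger mice, and its log2 fold change was 0.13 ± 0.18 (95% interval -0.27 to 0.53, adjusted p = 0.973). Spred2 had the widest difference, 7.92 ± 3.38 CPM in older and 10.6 ± 1.81 CPM in younger mice, with a log2 fold change of -0.44 ± 0.28 (adjusted p = 0.973). Spred1 had -0.22 ± 0.20, Dusp7 -0.22 ± 0.21, Spry1 -0.04 ± 0.17 and Dusp5 0.20 ± 0.47, with adjusted p-values from 0.973 to 0.986. These values moved with single libraries. Spred2 was at -0.19 without ethanol 2 and -0.76 without saline 1, Dusp7 at -0.05 and -0.46, and Spred1 at -0.06 and -0.42, in the same order. With the name ending as a covariate, in a fit that splits age from ending by saline 4 alone, the value of Dusp6 turned to -0.25.

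The ethanol difference was also compared between the age cohorts, which held 2 or 3 mice per treatment. For Dusp6 the older ethanol mice were at 546 and 596 CPM, against 674 and 1064 CPM in older saline mice, and the younger ethanol mice at 491 and 494 CPM, against 671 to 1129.8 CPM in younger saline mice. No overlap within a cohort follows from the separation over all mice. The log2 fold change was -0.61 ± 0.25 in the older and -0.76 ± 0.24 in the younger mice. The interaction was 0.15 ± 0.38 for Dusp6 (adjusted p = 0.980). It was -0.79 ± 0.35 for Dusp7, where ethanol mice averaged 182 CPM and saline mice 308 CPM in the older cohort, and ethanol mice 286 CPM and saline mice 280.3 CPM in the younger. Spred2 had an interaction of -0.90 ± 0.52, Spred1 of -0.51 ± 0.38 and Spry1 of -0.49 ± 0.32, each with an adjusted p of 0.972. With single libraries left out Spred2 ranged from -1.47 to -0.43, Dusp7 from -1.07 to -0.44, Spred1 from -0.88 to -0.19 and Spry1 from -0.78 to -0.22. In this test 0 of 13067 genes (0%) passed and 423 (3.24%) were under an unadjusted 0.05. Without ethanol 1, which leaves 1 older ethanol mouse that is assumed to vary like the others, it called 848 genes, none of them a member, with adjusted p of 0.162 for Dusp7 and 0.109 for Spred2.

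Whether the members moved together from mouse to mouse was examined with the mean of each treatment removed, over 28 pairs and 9 mice, with exact two-sided p-values from the 2880 orders of mice within treatments. Dusp7 and Spry1 had a Pearson r of 0.92 (p = 0.00556, adjusted p = 0.0486) and a Spearman rho of 0.90 (adjusted p = 0.0739), and r was 0.79 without ethanol 2 and ethanol 3, the mice farthest from the median of Dusp7. Dusp7 and Spred2 had an r of 0.90 (p = 0.00486, adjusted p = 0.0486) and a rho of 0.85 (0.0739), and r was 0.79 without the same mice. Spred1 and Spred2 had an r of 0.93 (p = 0.00903, adjusted p = 0.0506) and a rho of 0.75 (0.107), and r was 0.75 without ethanol 2 and saline 3. Of the 28 pairs, 4 passed by Pearson's r in the exact test and 0 by Spearman's rho. This test exchanges mice across name endings, with which Dusp7, Spred1, Spred2 and Dusp6 also differed. The other 2 of these pairs were Dusp4 with Dusp7 (r = 0.92) and with Spry1 (r = 0.86), where Dusp4 had 0 to 6 counts per library, too few to read a relation from. All 4 shared the same adjusted p of 0.0486, which was set by Dusp4 with Spry1 (exact p = 0.00694). The passing of the other pairs therefore leaned on that pair. Without saline 1 and ethanol 2 r was 0.73 for Dusp7 and Spry1 and 0.70 for Dusp7 and Spred2, with 144 orders, too few to judge 28 pairs. Dusp6 had negative r, of -0.60 with Spred1 (p = 0.0389, adjusted p = 0.0990, rho = -0.73) and of -0.58 with Spred2 (p = 0.0333, adjusted p = 0.0933, rho = -0.60), which did not pass, and r was -0.44 and -0.48 without saline 3 and saline 4. Each name ending held at most 4 libraries, too few for a correlation within it. With the means of treatment and ending both removed, over the 8 mice of 1-5-16 and 1-6-16, r was 0.96 for Dusp7 and Spry1, 0.76 for Dusp7 and Spred2 and 0.82 for Spred1 and Spred2. There r turned positive for Dusp6 with Spred1 (0.66) and with Spred2 (0.79). Each treatment held 2 mice per ending, whose deviations are then equal and opposite, so the 8 mice give fewer independent values. Only 16 orders of mice then exist, the exact p cannot go below 0.125, and these are values without a test.

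Likeness to Dusp6 was measured over the 9 libraries, again with treatment means removed. These libraries differed in depth and in name ending, and the means of the endings were not removed. The genes most like Dusp6 from mouse to mouse were sought among 8224 others of at least 10 CPM. They were Ppp1r21 (r = 0.97), Cyth1, an exchange factor for ARF GTPases (0.97), Calhm2, a calcium homeostasis modulator (0.97), Arntl, which encodes the clock transcription factor BMAL1 (0.96), and Cracr2b, a regulator of calcium release-activated channels (0.96). Without saline 1 and ethanol 2 their r ranged from 0.956 to 0.995. The libraries kept there include saline 3 and saline 4, the farthest from the median of Dusp6. The genes were also picked as the highest r of 8224, so a high r was likely in this subset, and chance was not tested. Their ethanol log2 fold changes were -0.44 ± 0.20 for Ppp1r21, -0.12 ± 0.10 for Cyth1, 0.05 ± 0.15 for Calhm2, -0.09 ± 0.16 for Arntl and 0.02 ± 0.14 for Cracr2b.

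Around the feedback genes, the cascade itself had small fold changes between ethanol and saline mice, and no gene of any list below passed edgeR's test in either direction. Of 21 genes from the adaptors to ERK, all tested, 16 were below 0 and 5 above, and the median was -0.04 with a range of -0.30 to 0.07. Rps6ka1, a kinase that ERK activates, was at 949.8 ± 62.6 CPM in ethanol and 940.1 ± 42.5 CPM in saline mice, and Map2k1, which encodes MEK1, at 252 ± 18.7 CPM in ethanol and 246 ± 10.1 CPM in saline mice. The adaptor gene Gab2 had a log2 fold change of -0.30 ± 0.13.

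Of 17 receptor tyrosine kinases upstream 11 were tested, with a median of -0.07. Csf1r, the receptor on which microglia depend, stood at 19151 ± 860 CPM in ethanol and 19403 ± 817 CPM in saline mice, and Mertk, a receptor for dying cells, at 1228 ± 46.9 CPM in ethanol and 1233 ± 32.7 CPM in saline mice. Axl, its relative, had a log2 fold change of -0.30 ± 0.15. Fgfr2, at 1.04 ± 0.446 CPM in ethanol and 0.545 ± 1.02 CPM in saline mice, had one of 0.94 with a 95% interval that reached 3.22.

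Among 17 other brakes on RAS 15 were tested, with 10 below 0 and a median of -0.11. Rasal3, a RAS GTPase-activating protein of blood cells, averaged 560.2 ± 50.8 CPM in ethanol and 625 ± 39.1 CPM in saline mice (-0.16 ± 0.08), and the phosphatase gene Ptpn6 515 ± 39.0 CPM in ethanol and 466 ± 77.5 CPM in saline mice (0.15 ± 0.12). Lztr1, an adaptor that targets RAS for degradation, had a log2 fold change of -0.23 ± 0.08 and Pea15a, which holds ERK in the cytoplasm, one of 0.10 ± 0.07.

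Of 6 other MAP kinase phosphatases 5 were tested, 4 of them above 0, with a median of 0.04. Dusp1, an early response gene whose product acts on several MAP kinases, was at 24.9 ± 16.1 CPM in ethanol and 16.0 ± 9.10 CPM in saline mice (0.63 ± 0.52). Dusp2 was at 3.37 ± 1.04 CPM in ethanol and 2.10 ± 0.457 CPM in saline mice (0.68 ± 0.28), Dusp10 at 3.40 ± 0.855 CPM in ethanol and 4.603 ± 0.573 CPM in saline mice (-0.43 ± 0.22) and Dusp16 at 14.6 ± 5.64 CPM in ethanol and 14.3 ± 7.46 CPM in saline mice (0.03 ± 0.38). None of the other Sprouty and Spred genes was tested. Spred3 averaged 0.401 CPM, Spry4 0.0819 CPM and Spry3 0.0110 CPM over the 9 libraries.

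Of 22 ERK-induced targets 18 were tested, with 11 below 0, 7 above and a median of -0.03. Myc, the growth regulator, stood at 25.2 ± 6.12 CPM in ethanol and 41.0 ± 10.1 CPM in saline mice, and had a log2 fold change of -0.70 ± 0.21 that did not pass (adjusted p = 0.963). Etv5, an ETS factor gene often read as a marker of ERK output, was at 329 ± 45.1 CPM in ethanol and 301 ± 101 CPM in saline mice. Its log2 fold change was 0.13 ± 0.22, with a 95% interval of -0.36 to 0.62 that gives no direction. Spsb1, an adaptor gene, had a log2 fold change of 0.10 ± 0.10. In the immediate early and dissociation list (19 of 20 tested, median -0.10) the cell cycle inhibitor gene Btg2 had one of 0.33 ± 0.16, the GTPase gene Rhob -0.25 ± 0.27 and the cytokine signalling inhibitor gene Socs3 -0.44 ± 0.14.

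**Figure D4:**
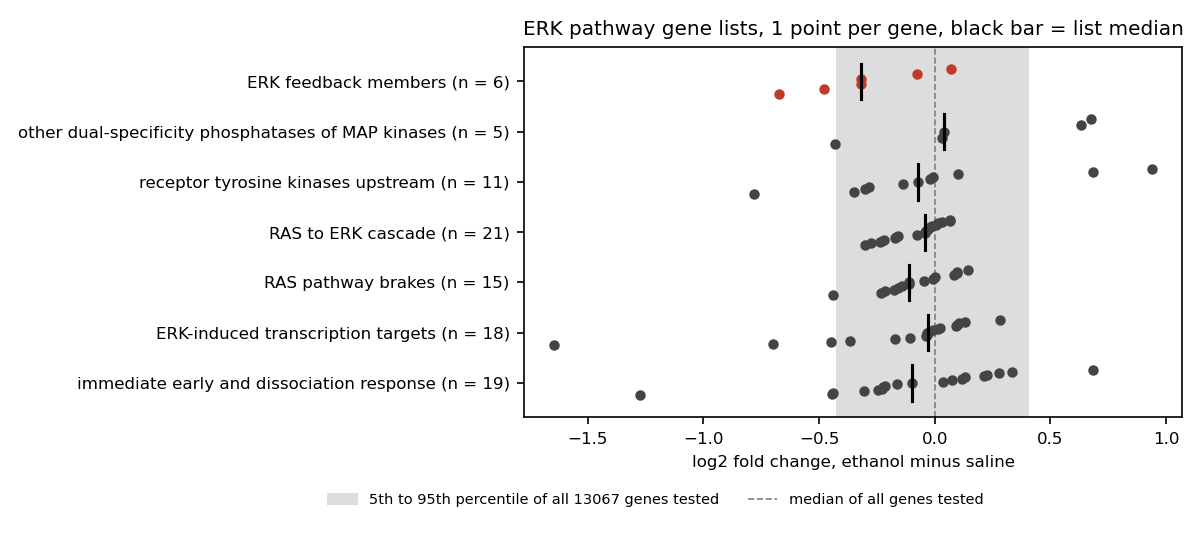
Log2 fold change of ethanol minus saline (horizontal axis) for each tested gene of the feedback members and of 6 lists of the pathway around them, with the list median as a black bar. The shaded band is the 5th to 95th percentile of all 13067 genes (-0.42 to 0.41); Dusp6 lies to the left of it at -0.67 and the medians of the 6 surrounding lists lie between -0.11 and 0.04.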

How the data were processed

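The data are 1 table that the authors deposited, holding raw counts of reads (whole numbers, not normalized) for 45664 gene symbols in 9 libraries. Trimmomatic 0.32, STAR 2.4.2a, HTSeq 0.6.1 and the build GRCm38.p4 are named per the submitters' processing notes. Their settings, annotation release and strand handling are not stated there. The filterByExpr function of edgeR (minimum count 10, minimum total 15) left 13067 genes, and library sizes were scaled by TMM. Levels are CPM, and levels between genes are CPM per kb of the union of a gene's exons (GENCODE M21, GRCm38).

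Comparisons used edgeR's quasi-likelihood F test (edgeR 4.0.16, R 4.3.3) with robust dispersions, fitted over all kept genes, with Benjamini-Hochberg adjusted p under 0.05 as the threshold. SE is the absolute log2 fold change over the square root of F, and 95% intervals use the degrees of freedom of the test. Correlations used log2 CPM after adding 0.5 counts (Python 3.11.15). Promoters came from RefSeq (GRCm38.p6). Alternatives were DESeq2 1.42.0, limma-voom 3.58.1, other scalings and filters, covariates, offsets for GC content and length (loess, span 0.3), each library left out, cohorts or name endings alone, and a block for replicate number. Comparisons of name endings were added after the data were seen. The procedure was tested on simulated data.

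The members, lists and tests were chosen with earlier results of these data known. Named genes were all members, and from each pathway list the 2 of highest mean CPM and the one of smallest ethanol p in each direction, and the 5 genes most like Dusp6. A gene that this rule names is not reported here. Each replicate is 1 mouse with 1 library, so spread among mice includes that of cell sorting and library making.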

Additional observations from a re-analysis of the deposited data

How the results depend on the processing

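The ethanol comparison called 0 genes in edgeR and under all 27 alternatives tried. Dusp6 was below 0 in all 27, at -0.94 to -0.48 (log2), and at -0.75 to -0.55 with each library left out, with a smallest adjusted p of 0.514. Every ethanol library was below every saline library for Dusp6, so fits to part of the libraries could hardly turn its sign. The members were chosen with this contrast in view, and their values here are a description. Spry1 was also below 0 in all 27 (-0.59 to -0.10). Dusp7 ranged from -0.76, in the older cohort alone, to 0.02, Spred1 from -0.21 to 0.31, Spred2 from -0.60 to 0.29, and Dusp5 from -0.73 to 0.20, the last under name ending 1-5-16 alone.

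The replicate numbers did not pair the mice (correlations of same-numbered libraries from -0.17 to 0.01). With the replicate number as a block 0 genes were called for ethanol (Dusp6 -0.70) and 0 for age. The name ending gave 1229 calls. Saline 1 had a term of its own there, and saline 5 shares its number with no ethanol mouse. The ending was then estimated from the same-numbered mice 2, 3 and 4 alone, with almost no libraries left to measure spread. The calls of this fit are therefore not read. Its log2 fold changes were 0.43 for Dusp6, -0.69 for Dusp7, -0.65 for Spred1 and -1.09 for Spred2, as a description. What raised the number of calls was not tested.

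For age, 97 genes were called with no count filter, 9 of them below the filter, and 3 (Adrb1, Nfkbia and Tagap, named after their values were seen, as are the single genes below) without saline 1 and ethanol 2. No member was among the 97, and the cause was not tested. Signs of members near 0 turned. Spry1 was at 0.017 with limma-voom and 0.078 with GC and length offsets, Dusp5 at -0.071 without saline 1 and ethanol 2, and Dusp6 at -0.25 with the name ending as a covariate. With single libraries left out Spry1 ranged from -0.18 to 0.11, Dusp5 from -0.17 to 0.54 and Dusp6 from -0.0041 to 0.28.

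For the interaction DESeq2 called 1 gene (C130089K02Rik), and leaving out single libraries gave 0 to 848 calls, the highest without ethanol 1. There Dusp5 ranged from -0.74 to 0.97 and Dusp6 from -0.14 to 0.52. For the name ending DESeq2 called 44 genes, limma-voom 20, upper-quartile scaling 1 and GC and length offsets 1 (Rgs1 in both), the fit without saline 1 and ethanol 2 called 55, and single libraries left out gave 0 to 57, the highest without ethanol 2. Dusp6 was at 0.51 with limma-voom, 0.52 without ethanol 2, 0.52 without saline 1 and ethanol 2 and 0.43 with the block. Its values prompted this comparison, so these are a description and carry no test. Of the member pairs 0 passed by Spearman's rho and 0 without saline 1 and ethanol 2, where 144 orders of mice limit what can pass, and 0 to 8 with single mice left out, the highest without saline 5.

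Depth limits Dusp4 and Spry2, with 0 to 6 counts per library, and Dusp5, with 6 to 31.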
